A study of Mus musculus with 10 samples.

Results

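Integrins, other cell adhesion molecules and tetraspanins are the surface proteins with which leukaemia cells attach to each other, to stroma and to vessel walls. The 39 genes described here are 13 integrin alpha chains, 5 integrin beta chains, 13 adhesion molecules and 8 tetraspanins, chosen by gene name. All 39 were found among the 38215 genes of the expected-count table, and 38 of them were among the 13966 genes with enough reads to be tested; Itgb3 was not. Levels are given as CPM, expected counts scaled to library size with TMM factors over the tested genes, and a gene is called where the adjusted p of the edgeR test across all tested genes was under 0.05.

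The RNA came from GFP+ spleen cells of mice with acute myeloid leukaemia (AML) after a secondary transplant, 5 libraries from immunocompetent C57BL/6J recipients (numbered 1, 3, 4, 5 and 6) and 5 from immunodeficient Rag2-/-γc-/- recipients (numbered 7 to 11). Per the labels, all 10 leukaemias carried the AML1-ETO fusion and NrasG12D from the MSCV-IRES-GFP retrovirus, put into lineage-depleted bone marrow, and all had grown first in Rag2-/-γc-/- mice. Such mice have no mature lymphocytes, NK cells included, whereas C57BL/6J recipients keep them. The question the design poses is how growth under an intact immune system changes the expressed genes. The labels used here give no age or sex of the recipients and do not say how many primary leukaemias supplied them, so the p-values measure the spread between recipients. The deletions are in the host, so Rag2 and Il2rg in the leukaemia do not check the labels: Rag2 stood at 1.52 to 2.39 CPM in C57BL/6J libraries and 2 to 6.58 CPM in Rag2-/-γc-/- libraries, and Il2rg at 9.68 to 17.7 CPM in C57BL/6J libraries and 10.5 to 12.0 CPM in Rag2-/-γc-/- libraries.

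An integrin is a pair of 1 alpha and 1 beta chain; the beta chain fixes the family and the alpha chain most of the ligand choice. Leukocytes use the β2 family (Itgb2 with Itgal, Itgam, Itgax or Itgad) to bind ICAMs and complement fragments, α4β1 to bind VCAM-1, and αEβ7 to bind E-cadherin. Tetraspanins gather integrins and other receptors into membrane patches, and selectin ligands such as PSGL-1 let blood cells roll on activated endothelium.

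Expected counts summed to 32703932 to 44097690 in C57BL/6J libraries and 28157745 to 62461126 in Rag2-/-γc-/- libraries. On the first principal component (46.4% of the variance of log2 CPM), Rag2-/-γc-/- libraries 7, 8 and 9 lay at 49.6 to 61.6, apart from Rag2-/-γc-/- libraries 10 and 11 at -4.88 and 8.73 and from C57BL/6J libraries at -57.5 to -20.2. Nras, whose reads may come from the endogenous gene and the vector alike, divided the same way, with 301 to 374 CPM in C57BL/6J libraries, 348 and 370 CPM in Rag2-/-γc-/- libraries 10 and 11, and 745 to 956 CPM in libraries 7, 8 and 9. The mouse gene of the ETO part of the fusion, Runx1t1, was at 0 CPM in all C57BL/6J libraries and in Rag2-/-γc-/- libraries 7 to 10, and at 0.0253 CPM in library 11; the labels do not say whether reads of the vector's fusion would be counted there. C57BL/6J library 1 held 178 CPM of 10 summed B cell markers and 46.0 CPM of 12 summed T cell markers. The B cell sum was 11.7 to 27.9 CPM in the other C57BL/6J libraries and 39.0 to 50.6 CPM in Rag2-/-γc-/- libraries. Cd22 had the largest mean of these 10 genes, 28.3 CPM, and 1 of the 10 was called higher and 1 lower. The T cell sum was 2.76 to 14.5 CPM in the other C57BL/6J libraries and 4.31 to 6.63 CPM in Rag2-/-γc-/- libraries. Neither sum passed the test between hosts (adjusted p = 1 and 0.233, exact permutation over libraries). The 12 granulocyte markers summed to 3.94 to 32.0 CPM in C57BL/6J and 5.49 to 33.2 CPM in Rag2-/-γc-/- libraries (adjusted p = 0.475, exact permutation). The 10 monocyte and macrophage markers summed to 215 to 356 CPM in C57BL/6J and 194 to 330 CPM in Rag2-/-γc-/- libraries (adjusted p = 0.506, exact permutation). Of these 10 markers, 2 were called lower and none higher. The list of 13 dendritic cell markers includes Xcr1, Clec9a and Irf8. It summed to 5790 to 7570 CPM in C57BL/6J and 3880 to 5720 CPM in Rag2-/-γc-/- libraries (adjusted p = 0.0437, exact permutation over libraries, 2-sided). Of these 13 genes 2 were called, both higher, and Wdfy4 had the largest mean, 1950 CPM. How these sums bear on the AML label was not tested. Ptprc, the pan-leukocyte CD45, stood at 472 to 743 CPM in C57BL/6J and 410 to 620 CPM in Rag2-/-γc-/- libraries.

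Among the 38 tested members, 4 were higher and 5 were lower in leukaemia from C57BL/6J recipients, 23.7% in all, where 7.79% of all tested genes were called (3.32% higher and 4.47% lower). Higher were the integrin chains Itgae, Itga2 and Itga2b and the cadherin Cdh1. Lower were the integrin chain Itga9, the adhesion molecules Pecam1, F11r and Podxl2, and the tetraspanin Tspan8. Of these 9, Podxl2 passed the low-count filter only through the Rag2-/-γc-/- libraries, where it is high. The libraries of both groups did not overlap in 10 members, these 9 and Cd81 (4 higher and 6 lower), against 8.50% of tested genes (4.13% higher and 4.37% lower). The median log2 fold change (C57BL/6J minus Rag2-/-γc-/-) was -0.41 over the 38 members and 0.00 over all tested genes, and 28 of the 38 members had a negative value. In 19 of the 38, Rag2-/-γc-/- libraries 7, 8 and 9 were all above 10 and 11, against 31.0% of all tested genes. The part of libraries 7, 8 and 9 in the median was not tested. In bulk RNA, fewer cells that express a gene and less of its RNA per cell cannot be told apart.

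**Figure D1:**
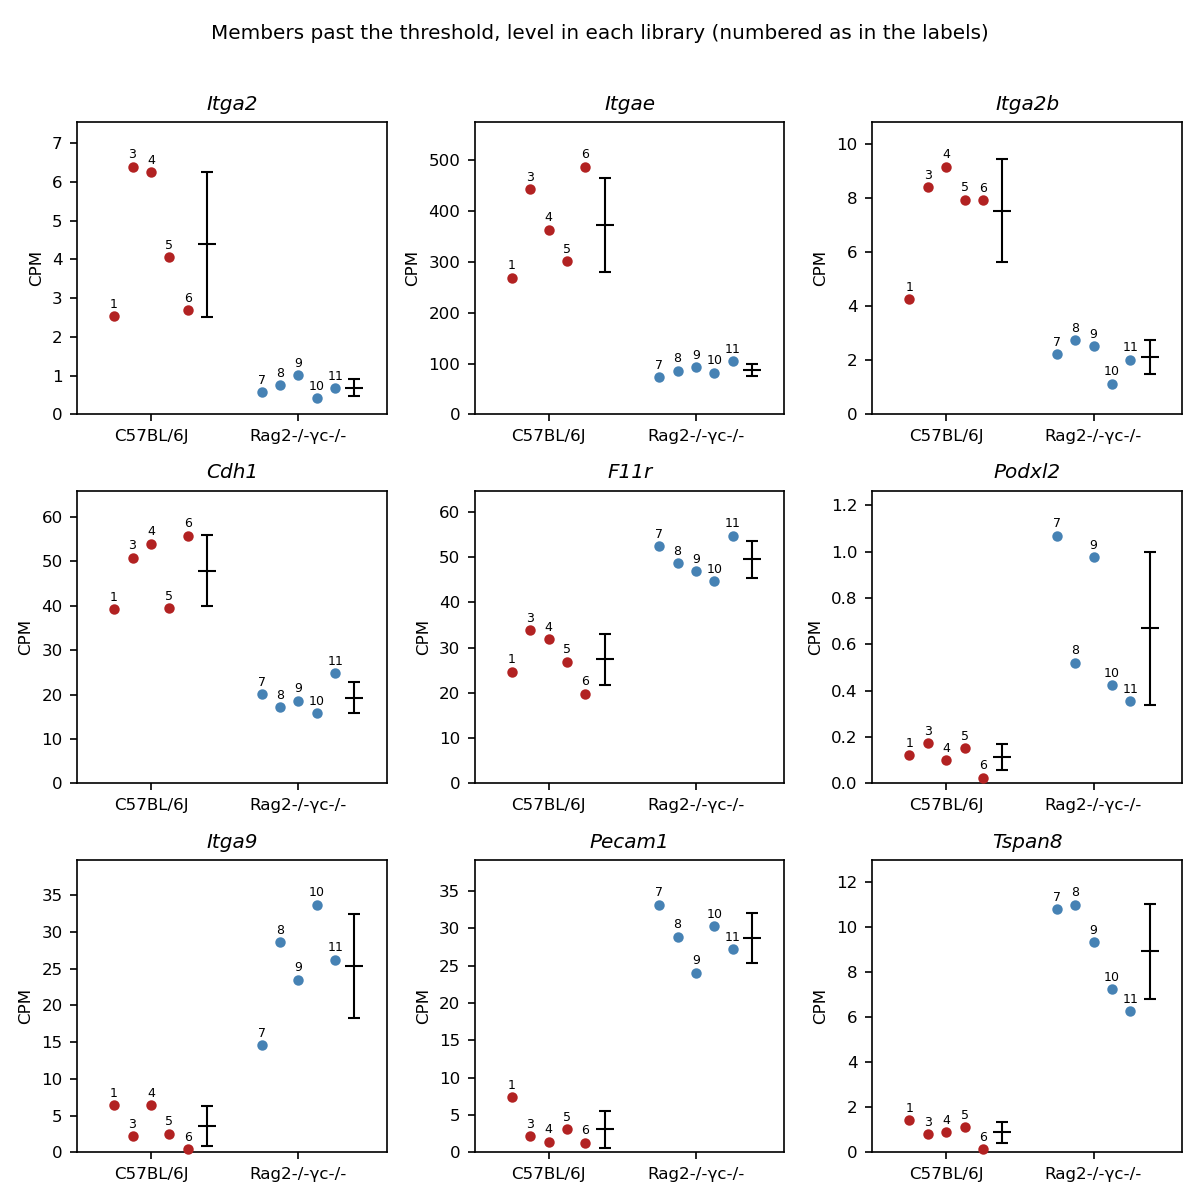
CPM of the 9 called members in each library, on linear axes from 0, with C57BL/6J libraries left of Rag2-/-γc-/- libraries in each panel; each numbered point is 1 library and the black mark beside a group is its mean with the SD (n = 5). In all 9 panels the groups do not overlap.

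The start regions of the called members for which RefSeq (GRCm38.p6) gave a window near the gene's 5′ end are printed first, because these are the members that differed between hosts. Each runs 5′ to 3′ on the gene's strand, from 250 bases before to 50 bases after the start site. Capitals mark matches, on either strand, to 5 motifs: the RUNX motif TGTGGT, the ETS motif GGAAGT, the E-box CACCTG, the ISRE core of interferon-response elements (GAAA, any 2 bases and GAAA again) and the GAS motif TTCNNNGAA.
Itga2, chr13:114932051-114932350, minus strand: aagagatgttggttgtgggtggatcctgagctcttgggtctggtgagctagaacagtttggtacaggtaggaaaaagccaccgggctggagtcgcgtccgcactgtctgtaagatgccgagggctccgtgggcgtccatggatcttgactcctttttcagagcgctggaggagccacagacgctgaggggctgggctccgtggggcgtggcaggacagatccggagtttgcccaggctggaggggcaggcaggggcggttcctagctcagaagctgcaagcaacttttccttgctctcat
Itga2b, chr11:102469834-102470133, minus strand: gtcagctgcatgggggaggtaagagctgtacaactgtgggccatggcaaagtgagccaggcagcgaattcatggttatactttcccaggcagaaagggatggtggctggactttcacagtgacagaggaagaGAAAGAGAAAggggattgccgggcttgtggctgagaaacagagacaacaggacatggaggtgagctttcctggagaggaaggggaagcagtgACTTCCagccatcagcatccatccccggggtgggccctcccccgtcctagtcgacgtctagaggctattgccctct
F11r, chr1:171437311-171437610, plus strand: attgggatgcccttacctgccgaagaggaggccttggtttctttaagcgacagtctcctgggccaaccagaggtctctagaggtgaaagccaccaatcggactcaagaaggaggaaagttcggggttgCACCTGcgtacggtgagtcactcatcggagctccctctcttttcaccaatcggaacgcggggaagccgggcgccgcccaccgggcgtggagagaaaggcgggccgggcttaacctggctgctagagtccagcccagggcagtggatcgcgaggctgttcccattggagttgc
Podxl2, chr6:88874997-88875296, minus strand: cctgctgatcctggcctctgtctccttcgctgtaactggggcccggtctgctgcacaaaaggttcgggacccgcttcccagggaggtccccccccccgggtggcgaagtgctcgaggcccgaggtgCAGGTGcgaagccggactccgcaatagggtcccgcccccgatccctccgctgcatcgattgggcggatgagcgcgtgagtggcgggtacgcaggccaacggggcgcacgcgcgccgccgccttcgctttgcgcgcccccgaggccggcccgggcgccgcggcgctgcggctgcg
Tspan8, chr10:115817034-115817333, plus strand: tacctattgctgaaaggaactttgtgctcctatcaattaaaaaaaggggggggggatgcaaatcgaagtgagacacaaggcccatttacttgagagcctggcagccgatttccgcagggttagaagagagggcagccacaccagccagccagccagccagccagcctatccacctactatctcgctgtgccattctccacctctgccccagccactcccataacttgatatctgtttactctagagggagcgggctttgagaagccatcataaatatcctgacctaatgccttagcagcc

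The Itga2b window held the ISRE core at position -118 and the reverse of the ETS motif at -26, counted from the start site. The F11r window held the E-box at -122 and the Podxl2 window its reverse at -124, while the Itga2 and Tspan8 windows held none of the 5 motifs. Windows were found for 26 of the 39 members within 1000 bases of the 5′ end. Among these 26, the RUNX motif stood in 3 (Itga4, Itgax and Cd53), the ETS motif in 8, the E-box in 9, the ISRE core in 1 (Itga2b) and the GAS motif in 1 (Icam1). Of 27025 promoters in the genome, 16.9% held the RUNX motif, 24.1% the ETS motif, 20% the E-box, 3.49% the ISRE core and 8.47% the GAS motif. These are letter matches only.

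Among the alpha chains, 3 of 13 were higher, 1 was lower and 9 were not called, 30.8% called against 7.79% of all tested genes. Itgae encodes αE (CD103), the partner of β7 and a marker of intraepithelial T cells and of cross-presenting dendritic cells (chr11:73090583-73147446, plus strand). It stood at 269, 443, 363, 301 and 487 CPM in C57BL/6J libraries 1, 3, 4, 5 and 6, against 72.7, 85.9, 92.5, 82.0 and 105 CPM in Rag2-/-γc-/- libraries 7 to 11. Values of single libraries are listed in this order throughout. Every C57BL/6J library was far above every Rag2-/-γc-/- library, and Rag2-/-γc-/- libraries 10 and 11 lay with 7, 8 and 9. The difference was 4.25-fold (log2 fold change 2.09 ± 0.17 SE, adjusted p = 7.19e-05), with means of 373 ± 92.2 CPM in C57BL/6J and 87.7 ± 12.2 CPM in Rag2-/-γc-/- libraries (SD, n = 5 each). The overlapping gene Gsg2, on the opposite strand, averaged 21.7 CPM in C57BL/6J and 15.6 CPM in Rag2-/-γc-/- libraries and was not called (log2 fold change 0.48, adjusted p = 0.151). The dendritic cell markers named above also were higher in sum in C57BL/6J libraries; their part in the Itgae result was not tested.

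Itga2, the α2 chain that pairs with β1 to bind collagen and that platelets and NK cells carry (chr13:114835916-114932041, minus strand), was low throughout. Its CPM was 2.54, 6.39, 6.24, 4.05 and 2.69 in C57BL/6J libraries, against 0.576, 0.757, 1.01, 0.425 and 0.683 in Rag2-/-γc-/- libraries. The lowest C57BL/6J library, number 1, was above the highest Rag2-/-γc-/- library, number 9, and the difference was 6.36-fold (log2 2.67 ± 0.34 SE, adjusted p = 0.000887). Its neighbour Itga1, another collagen-binding α chain, lies 26037 bases away on chromosome 13 and was not called, with 10.1 to 29.5 CPM in C57BL/6J and 10.3 to 51.0 CPM in Rag2-/-γc-/- libraries (log2 -0.98 ± 0.44 SE, adjusted p = 0.184). NK cell markers summed to 30.1 to 43.3 CPM in C57BL/6J and 10.8 to 28.9 CPM in Rag2-/-γc-/- libraries (10 genes, adjusted p = 0.0437, exact permutation). Of these 10, Klrk1 and Klrd1 gave most of the sum, Klrk1 was called higher, Klrb1c had a negative log2 value (-1.37, adjusted p = 0.115; 0.809 CPM in C57BL/6J and 2.07 CPM in Rag2-/-γc-/- libraries), and Gzma and Gzmb were at 0 in all Rag2-/-γc-/- libraries and averaged 0.504 and 0.797 CPM in C57BL/6J libraries. The part of the NK markers in the Itga2 result was not tested.

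Itga2b encodes αIIb, the platelet fibrinogen receptor chain that early blood progenitors and mast cells also make (chr11:102453297-102470122, minus strand). It stood at 4.25, 8.39, 9.16, 7.94 and 7.92 CPM in C57BL/6J libraries, against 2.22, 2.74, 2.53, 1.14 and 2.02 CPM in Rag2-/-γc-/- libraries. C57BL/6J library 1 was the lowest of its group and still above all Rag2-/-γc-/- libraries; the difference was 3.52-fold (log2 1.82 ± 0.26 SE, adjusted p = 0.00187). Its β partner Itgb3 fell below the filter, at 2.87 CPM in C57BL/6J library 1, 0.0435 to 0.666 CPM in the other C57BL/6J libraries and 0.0678 to 0.355 CPM in Rag2-/-γc-/- libraries. Platelet and megakaryocyte markers summed to 139 to 196 CPM in C57BL/6J and 118 to 199 CPM in Rag2-/-γc-/- libraries (12 genes, adjusted p = 0.324, exact permutation), most of it Nbeal2 at 146 CPM. Of these 12, 6 averaged under 0.1 CPM and Gp1bb, Gp5, Gp6, Gp9 and Tubb1 stayed at or under 0.284 CPM in every library, while Clec1b was called higher (27.1 CPM in C57BL/6J and 9.59 CPM in Rag2-/-γc-/- libraries, log2 1.49). Gp1ba (0.55 CPM in C57BL/6J and 1.27 CPM in Rag2-/-γc-/- libraries, log2 -1.21, adjusted p = 0.167) and Pf4 (1.25 CPM in C57BL/6J and 2.2 CPM in Rag2-/-γc-/- libraries, log2 -0.83, adjusted p = 0.514) had negative values and were not called.

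Itga9, which pairs with β1 to bind tenascin-C and osteopontin (chr9:118606690-118901003, plus strand), went the other way. It stood at 6.47, 2.22, 6.47, 2.57 and 0.428 CPM in C57BL/6J libraries, against 14.6, 28.6, 23.5, 33.7 and 26.2 CPM in Rag2-/-γc-/- libraries. The C57BL/6J libraries were low but scattered, with library 6 lowest, and all lay under the lowest Rag2-/-γc-/- library, number 7. The level was 6.99-fold lower in C57BL/6J (log2 -2.81 ± 0.54 SE, adjusted p = 0.0102), and with Rag2-/-γc-/- libraries 7, 8 and 9 left out the log2 value was -3.05 with an adjusted p of 0.0643.

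The remaining 9 alpha chains were not called. Of the α chains of the β2 family, Itgam (CD11b) had 398 to 789 CPM in C57BL/6J and 652 to 1160 CPM in Rag2-/-γc-/- libraries (log2 -0.71 ± 0.20 SE, adjusted p = 0.0553), and it was past the threshold without C57BL/6J library 3 (0.0322), without Rag2-/-γc-/- library 10 (0.0192) or with DESeq2 (0.0125). Itgax (CD11c) had 477 to 772 CPM in C57BL/6J and 474 to 634 CPM in Rag2-/-γc-/- libraries (log2 0.26, adjusted p = 0.218; 0.0436 without C57BL/6J library 1). Itgal (CD11a, of LFA-1) stood at 292 to 473 CPM in C57BL/6J and 386 to 508 CPM in Rag2-/-γc-/- libraries. Itgad, which lies 3719 bases from its close paralog Itgax on chromosome 7, had 0.304 to 1.97 CPM in C57BL/6J and 0.407 to 0.832 CPM in Rag2-/-γc-/- libraries. These low values are uncertain, because its expected counts are in part fractions of shared reads. Itgam and Itgax also had expected counts that were not whole, such as 26448.98 for Itgam in C57BL/6J library 5 and 15618.11 for Itgax in C57BL/6J library 1.

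The α chains of the β2 family can be set side by side per kilobase of exons. Of the 4 chains, Itgam took 36.3 ± 5.29% of the summed CPM per kilobase in C57BL/6J and 50.7 ± 7.91% in Rag2-/-γc-/- libraries, and Itgax 43.7 ± 4.29% in C57BL/6J and 31.2 ± 5.05% in Rag2-/-γc-/- libraries (SD, n = 5 each); the ranges of both hosts overlapped for each chain. The Itgax over Itgam ratio ran over 0.915 to 1.80 in C57BL/6J and 0.427 to 1.02 in Rag2-/-γc-/- libraries; the ranges meet because Rag2-/-γc-/- library 10, at 1.02, was above C57BL/6J library 3, at 0.915. Between the partners of β7, the Itgae over Itga4 ratio was 5.46 to 12.0 in C57BL/6J and 1.44 to 4.29 in Rag2-/-γc-/- libraries and the ranges did not overlap. These shares and ratios were not tested. The Itgb7 over Itgb1 ratio covered 0.432 to 0.867 in C57BL/6J and 0.370 to 0.703 in Rag2-/-γc-/- libraries.

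**Figure D2:**
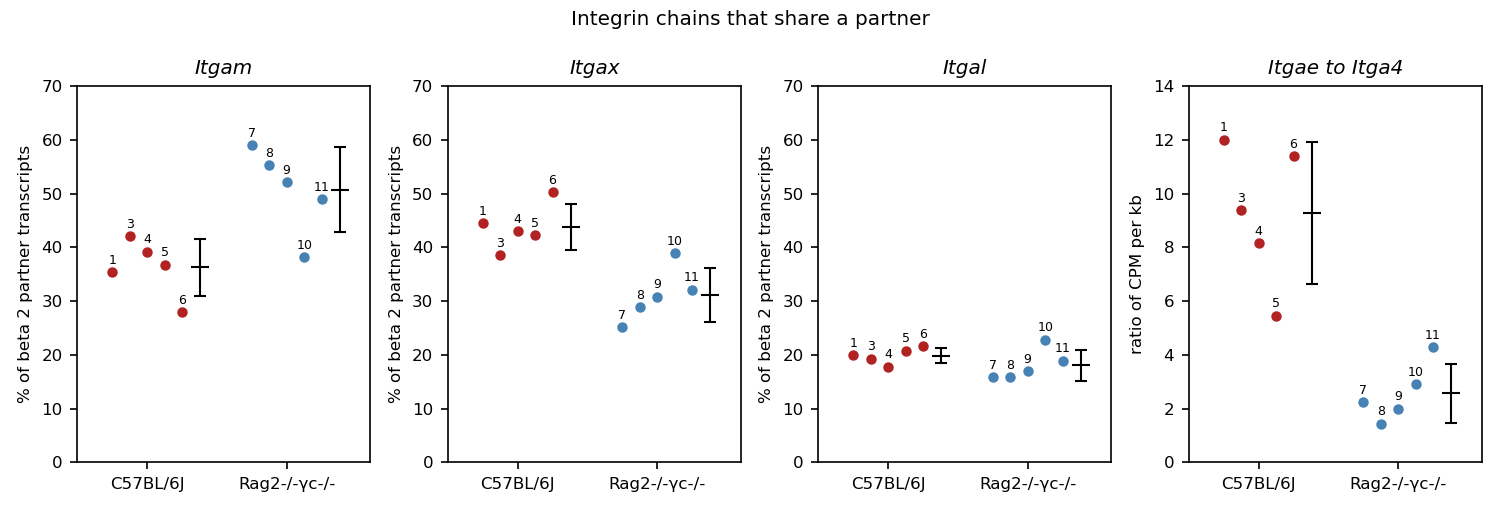
Share of Itgam, Itgax and Itgal in the summed CPM per kilobase of the 4 α chains of the β2 family (percent, 3 panels) and the ratio of Itgae to Itga4 in CPM per kilobase (the last panel), with C57BL/6J libraries left of Rag2-/-γc-/- libraries; each numbered point is 1 library and the black mark is the group mean with the SD (n = 5). The Itgae to Itga4 ratio separates the groups, and the Itgal shares, 19.9 ± 1.46% in C57BL/6J and 18.1 ± 2.95% in Rag2-/-γc-/- libraries, overlap.

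The other 5 uncalled alpha chains bind other ligands. Itga4, the α4 chain that binds VCAM-1 and fibronectin, had 68.1 to 168 CPM in C57BL/6J and 75.0 to 182 CPM in Rag2-/-γc-/- libraries. Itga5, the fibronectin receptor chain, had 18.8 to 41.6 CPM in C57BL/6J and 28.9 to 65.8 CPM in Rag2-/-γc-/- libraries. Itga6, a laminin receptor chain, had 29.9 to 44.4 CPM in C57BL/6J and 39.6 to 61.3 CPM in Rag2-/-γc-/- libraries (log2 -0.51 ± 0.15 SE, adjusted p = 0.0621), and it was past the threshold without Rag2-/-γc-/- library 10 (0.0335) or 11 (0.0273) and with DESeq2 (0.0213). Itgav, which binds vitronectin and other RGD ligands, had 44.4 to 90.0 CPM in C57BL/6J and 82.8 to 118 CPM in Rag2-/-γc-/- libraries. Itga1, described beside Itga2, was past the threshold without Rag2-/-γc-/- library 10 (log2 -1.21, adjusted p = 0.0398) and its sign turned without libraries 7, 8 and 9 (0.31).

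None of the 4 tested beta chains was called by edgeR, none had an unadjusted p under 0.05, and DESeq2 called none. Itgb2, the shared chain of the leukocyte β2 family, was the most abundant member per kilobase and stood at 1050 to 1520 CPM in C57BL/6J and 1310 to 1550 CPM in Rag2-/-γc-/- libraries (log2 -0.14 ± 0.10 SE). Itgb1, the chain shared by most matrix receptors, had 392 to 614 CPM in C57BL/6J and 469 to 521 CPM in Rag2-/-γc-/- libraries (log2 0.13 ± 0.11 SE). Itgb7, the partner of αE and α4, had 151 to 330 CPM in C57BL/6J and 118 to 244 CPM in Rag2-/-γc-/- libraries (log2 0.09 ± 0.23 SE). So the αE chain differed between hosts while the level of its β7 chain differed by less than its spread between libraries. Itgb5, a partner of αv, was low, at 0.302 to 3.43 CPM in C57BL/6J and 2.19 to 6.84 CPM in Rag2-/-γc-/- libraries (log2 -1.12 ± 0.59 SE, adjusted p = 0.244).

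Among the 13 adhesion molecules, 1 was higher, 3 were lower and 9 were not called, 30.8% called against 7.79% of all tested genes. Their median log2 fold change was -0.68 and 12 of the 13 had a negative value. Without Rag2-/-γc-/- libraries 7, 8 and 9, negative values shrank for Icam1 (-0.22), Vcam1 (-0.18), Alcam (-0.19), Ninj1 (-0.22), Emb (-0.04) and Podxl2 (-1.72). They did not for Pecam1 (-3.23), F11r (-0.85), Cd44 (-0.20), Icam2 (-1.23) and Esam (-1.50), and Selplg turned positive (0.20). Cdh1 is E-cadherin, the ligand of αEβ7 and a homophilic adhesion protein of epithelia and some myeloid cells (chr8:106603351-106670246, plus strand). It stood at 39.3, 50.8, 54.0, 39.4 and 55.8 CPM in C57BL/6J libraries, against 20.1, 17.2, 18.6, 15.8 and 24.8 CPM in Rag2-/-γc-/- libraries. All C57BL/6J libraries were above all Rag2-/-γc-/- libraries, by 2.48-fold in the fit (log2 1.31 ± 0.15 SE, adjusted p = 0.000494). The receptor chain Itgae and its ligand Cdh1 were thus both higher in leukaemia from C57BL/6J recipients.

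Pecam1 (CD31), a homophilic molecule of endothelium, platelets and leukocytes (chr11:106654217-106750628, minus strand), stood at 7.39, 2.17, 1.42, 3.11 and 1.31 CPM in C57BL/6J libraries, against 33.2, 28.9, 24.1, 30.3 and 27.2 CPM in Rag2-/-γc-/- libraries. The 5 Rag2-/-γc-/- libraries lay close together, with 10 and 11 among the others, and C57BL/6J library 1 was the highest of its group. The level was 9.41-fold lower in C57BL/6J (log2 -3.23 ± 0.42 SE, adjusted p = 0.00109), and without C57BL/6J library 1 the log2 value was -3.83. Endothelial markers summed to 12.4 to 19.6 CPM in C57BL/6J and 7.35 to 19.7 CPM in Rag2-/-γc-/- libraries (12 genes, adjusted p = 0.458, exact permutation). Flt1 gave most of that sum, 8 of the 12 averaged under 0.1 CPM, Tie1 and Sox17 were at 0 in every library, and Cdh5 averaged 0.390 CPM in C57BL/6J and 0.545 CPM in Rag2-/-γc-/- libraries.

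F11r (JAM-A), a junction protein and ligand of LFA-1 (chr1:171437535-171464603, plus strand), stood at 24.7, 33.9, 31.8, 26.9 and 19.8 CPM in C57BL/6J libraries, against 52.4, 48.6, 46.8, 44.7 and 54.7 CPM in Rag2-/-γc-/- libraries. The groups did not overlap and the level was 1.80-fold lower in C57BL/6J (log2 -0.85 ± 0.14 SE, adjusted p = 0.0042). With Rag2-/-γc-/- libraries 7, 8 and 9 left out, the log2 value stayed at -0.85 and the adjusted p was 0.0709.

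Podxl2 (endoglycan), a sialomucin of the CD34 family that can carry selectin ligands (chr6:88842558-88875044, minus strand), was near the lower limit of detection. It stood at 0.122, 0.173, 0.101, 0.152 and 0.0252 CPM in C57BL/6J libraries, against 1.07, 0.521, 0.977, 0.425 and 0.354 CPM in Rag2-/-γc-/- libraries. The C57BL/6J values rest on 1 to 7 reads per library and lay under all Rag2-/-γc-/- values (log2 -2.51 ± 0.47 SE, 5.69-fold lower, adjusted p = 0.00875). No C57BL/6J library reached the minimum count of 10, so Podxl2 was tested only because of its Rag2-/-γc-/- libraries. Rag2-/-γc-/- libraries 10 and 11 were the lowest of their group, and without 7, 8 and 9 the log2 value was -1.72 with an adjusted p of 0.225.

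The 9 uncalled adhesion molecules ranged widely in level. Icam1, the main LFA-1 ligand, had 175 to 266 CPM in C57BL/6J and 246 to 504 CPM in Rag2-/-γc-/- libraries (log2 -0.48, adjusted p = 0.148), and Icam2, another LFA-1 ligand, had 2.49 to 6.68 CPM in C57BL/6J and 3.36 to 10.2 CPM in Rag2-/-γc-/- libraries. Vcam1, the α4β1 ligand that macrophages and stroma also make, had 4.2 to 15.9 CPM in C57BL/6J and 6.70 to 48.1 CPM in Rag2-/-γc-/- libraries (log2 -1.30 ± 0.51 SE, adjusted p = 0.139; 0.0412 without Rag2-/-γc-/- library 10). Red pulp macrophage markers summed to 1950 to 2800 CPM in C57BL/6J and 2460 to 3540 CPM in Rag2-/-γc-/- libraries (14 genes, adjusted p = 0.109, exact permutation; 1 called higher and 2 lower, most of the sum Axl at 1810 CPM), and their part in the Vcam1 values was not tested.

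Selplg (PSGL-1), the main selectin ligand of leukocytes, had 152 to 228 CPM in C57BL/6J and 160 to 222 CPM in Rag2-/-γc-/- libraries, and Cd44, the hyaluronan receptor, had 182 to 285 CPM in C57BL/6J and 226 to 308 CPM in Rag2-/-γc-/- libraries. The hosts overlapped for both, although C57BL/6J libraries 1 and 5 lay under every Rag2-/-γc-/- library for Cd44. Alcam, the ligand of CD6, had 108 to 177 CPM in C57BL/6J and 150 to 285 CPM in Rag2-/-γc-/- libraries (log2 -0.68 ± 0.20 SE, adjusted p = 0.059). Esam, found on endothelium and blood stem cells, had 0.674 to 1.88 CPM in C57BL/6J and 1.34 to 6.45 CPM in Rag2-/-γc-/- libraries (log2 -1.29 ± 0.40 SE, adjusted p = 0.0729). Emb (embigin), a partner of monocarboxylate transporters, had 114 to 210 CPM in C57BL/6J and 160 to 445 CPM in Rag2-/-γc-/- libraries (log2 -0.78 ± 0.27 SE, adjusted p = 0.106). Without Rag2-/-γc-/- library 10 these 3 were past the threshold, with adjusted p of 0.0147 for Alcam, 0.02 for Esam and 0.0377 for Emb; without library 11 Alcam (0.0412) and Emb (0.0461) were, and DESeq2 called Alcam (0.0153), Esam (0.0141) and Emb (0.0434). Calls lower over all tested genes rose as well, from 624 to 1323 without library 10, 849 without library 11 and 1210 with DESeq2. Ninj1, which takes part in the rupture of dying cells, had 9.08 to 21.7 CPM in C57BL/6J and 15.6 to 22.6 CPM in Rag2-/-γc-/- libraries (log2 -0.46, adjusted p = 0.197; -0.69 and 0.0223 without C57BL/6J library 1).

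Of the 8 tetraspanins, 1 was lower and 7 were not called, 12.5% called against 7.79% of all tested genes. Tspan8, known from epithelia and carcinomas as a partner of integrins (chr10:115817284-115849893, plus strand), stood at 1.44, 0.814, 0.913, 1.13 and 0.151 CPM in C57BL/6J libraries, against 10.8, 11, 9.34, 7.25 and 6.27 CPM in Rag2-/-γc-/- libraries. The groups were far apart, and Rag2-/-γc-/- libraries 10 and 11 were the lowest of their group. The level was 10-fold lower in C57BL/6J (log2 -3.33 ± 0.42 SE, adjusted p = 0.000787), the most negative log2 value among the members.

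Cd81, a tetraspanin that pairs with integrins, stood at 240, 297, 276, 278 and 306 CPM in C57BL/6J libraries, against 415, 315, 312, 347 and 360 CPM in Rag2-/-γc-/- libraries. The groups did not overlap, by a narrow gap between C57BL/6J library 6 and Rag2-/-γc-/- library 9, and edgeR did not call the difference (log2 -0.32 ± 0.10 SE, adjusted p = 0.0758; DESeq2 gave 0.0329). Cd53, a tetraspanin mainly of blood cells, had 234 to 325 CPM in C57BL/6J and 263 to 414 CPM in Rag2-/-γc-/- libraries (log2 -0.26), and Cd37, another of blood cells, had 9.96 to 43.8 CPM in C57BL/6J and 19.8 to 27.5 CPM in Rag2-/-γc-/- libraries (log2 -0.23, adjusted p = 0.678). For Cd37 the highest value was that of C57BL/6J library 1, the library rich in B cell markers, and without it the log2 value was -0.71 with an adjusted p of 0.0473; the part of the B cell markers was not tested.

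Cd9, a partner of β1 integrins, had 80.0 to 102 CPM in C57BL/6J and 95.5 to 113 CPM in Rag2-/-γc-/- libraries, and Cd82, a brake on cell migration, had 227 to 312 CPM in C57BL/6J and 240 to 259 CPM in Rag2-/-γc-/- libraries (log2 0.04 ± 0.09 SE). Cd63, a tetraspanin of lysosomes and exosomes, had 7.44 to 21 CPM in C57BL/6J and 15.4 to 33.0 CPM in Rag2-/-γc-/- libraries (log2 -0.68, adjusted p = 0.203). Cd151, which binds laminin-binding integrins, had 7.91 to 11.5 CPM in C57BL/6J and 8.89 to 19.4 CPM in Rag2-/-γc-/- libraries (log2 -0.53, adjusted p = 0.139; 0.0351 without Rag2-/-γc-/- library 10). The 4 abundant tetraspanins, Cd53, Cd81, Cd82 and Cd9, thus had log2 values between -0.32 and 0.04.

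**Figure D3:**
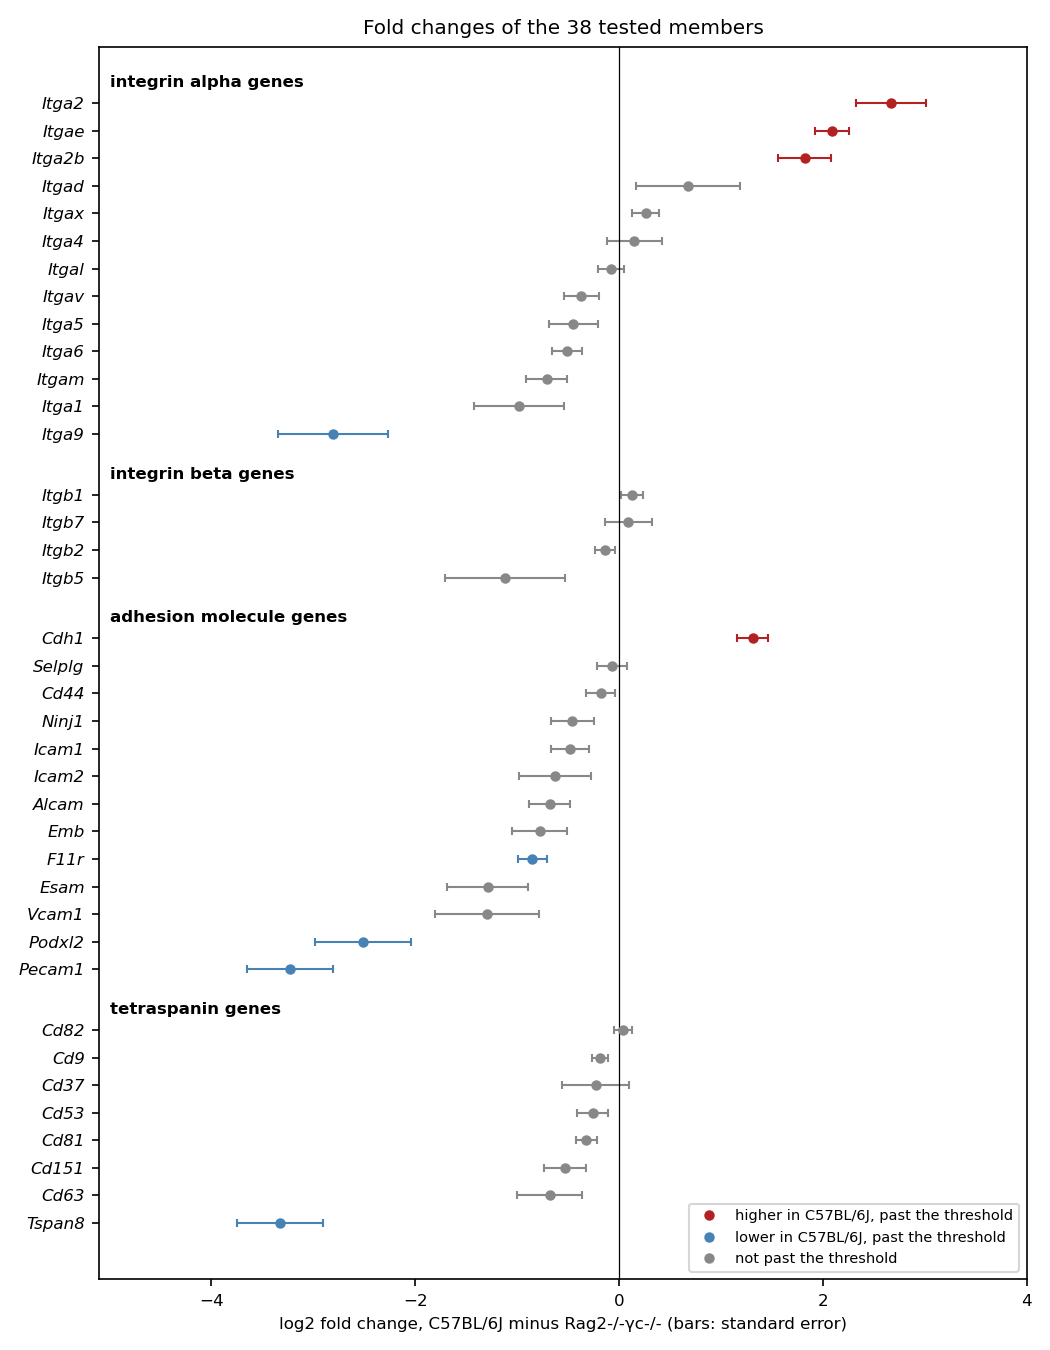
Log2 fold change (C57BL/6J minus Rag2-/-γc-/-) of the 38 tested members by class; each point is 1 gene, bars are standard errors, red and blue points passed an adjusted p of 0.05 as higher and lower in C57BL/6J, and grey points did not. The called genes run from 2.67 for Itga2 to -3.33 for Tspan8.

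Across all 10 libraries the members spanned a wide range of levels per kilobase of exons. Itgb2 averaged 445 CPM per kilobase, followed by Cd53 (178), Itgam (151), Itgax (125), Itgb1 (124) and Cd81 (109). The order of the integrin chains differed by host: Itgax (137), Itgb1 (130) and Itgam (115) in C57BL/6J, and Itgam (187), Itgb1 (119) and Itgax (114) in Rag2-/-γc-/- libraries. Over all libraries the lowest were Itgb3 (0.0873) and Podxl2 (0.0682). Within C57BL/6J libraries Itgae averaged 81.3 ± 20.1 CPM per kilobase, in the range of Itgal (62.3 ± 10.8) and Itgb7 (76.0 ± 26.1), while in Rag2-/-γc-/- libraries Itgae was at 19.1 ± 2.67, under Itgal (65.9 ± 7.10) and Itgb7 (71.4 ± 17.4; SD, n = 5 each). Of the 4 higher members, Itgae and Cdh1 were thus the abundant ones and Itga2 and Itga2b averaged under 10 CPM in both hosts.

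The Rag2-/-γc-/- libraries were not alike, for many members as for many of all tested genes. In 19 of the 38 tested members libraries 7, 8 and 9 were all above libraries 10 and 11, and in 2 they were all below, against 31.0% and 29.5% of all tested genes. In 7 members libraries 7, 8 and 9 were above every other library while 10 and 11 lay within the C57BL/6J range, against 7.50% of all tested genes: Itga1, Itga6, Vcam1, Cd53, Cd63, Cd151 and Emb. For Itga1 these libraries had 51.0, 50.9 and 43.8 CPM, and 10 and 11 had 10.3 and 18.2 CPM, with C57BL/6J libraries at 10.1 to 29.5 CPM. For Emb they had 445, 313 and 281 CPM, and 10 and 11 had 169 and 160 CPM, with C57BL/6J libraries at 114 to 210 CPM. None of these 7 was called. The rule that picked them places their highest values in libraries 7, 8 and 9, so that is no separate result. What divides these libraries from 10 and 11 is not given in the labels, and its part was not tested. Itgae, Itga2, Itga2b, Cdh1, Pecam1 and Tspan8 were called with libraries 10 and 11 left out and with libraries 7, 8 and 9 left out.

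**Figure D4:**
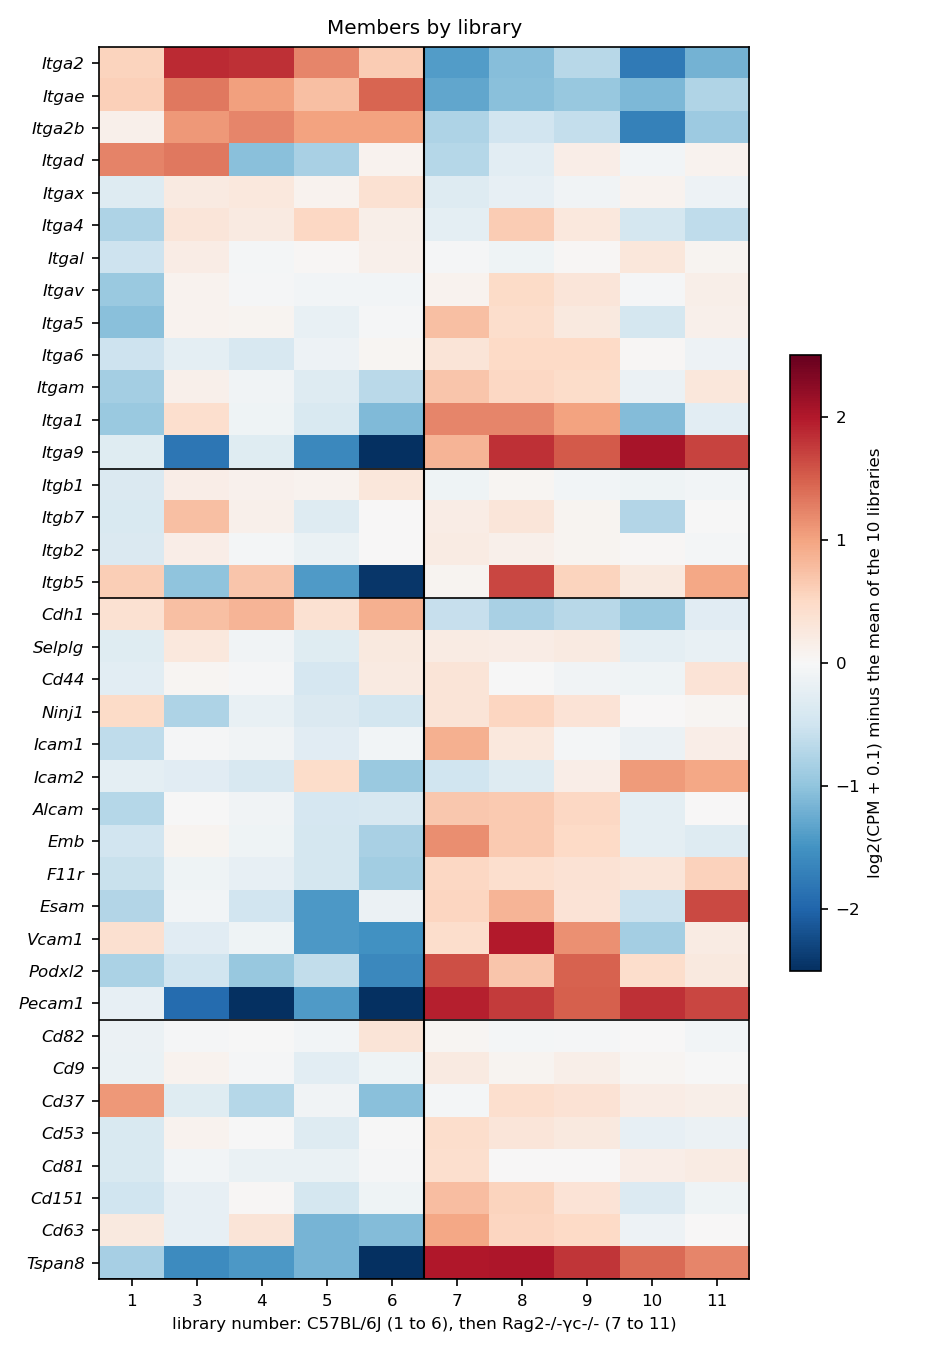
Log2(CPM + 0.1) of each tested member minus its mean over the 10 libraries, with members in rows by class and libraries in columns, C57BL/6J libraries 1, 3, 4, 5 and 6 left of Rag2-/-γc-/- libraries 7 to 11; red is above and blue below the mean. Called members divide at the line between hosts, whereas Itga1, Vcam1 and Emb stand out in Rag2-/-γc-/- libraries 7, 8 and 9.

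The other genes of these pathways were read from 7 lists. Among matrix and plasma ligands of integrins (11 of 24 tested), 1 was higher and 2 were lower, 27.3% called against 7.79% of all tested genes. Mfge8, the milk fat globule protein that links αv integrins to dying cells, stood at 328 to 653 CPM in C57BL/6J and 98.4 to 171 CPM in Rag2-/-γc-/- libraries (log2 1.80 ± 0.20 SE, adjusted p = 0.000357). Lamb2, a laminin chain, and Cyr61, a matrix-associated integrin ligand, were lower (log2 -2.17 and -2.75, adjusted p = 0.00704 and 0.00838), both at low levels, averaging 0.307 and 0.297 CPM in C57BL/6J and 1.41 and 2.03 CPM in Rag2-/-γc-/- libraries. Both passed the low-count filter only because of the Rag2-/-γc-/- libraries, where they are high, and the 27.3% counts them.

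Among selectins, sialomucins and the enzymes that build selectin ligands (15 of 18 tested), 5 were lower and none was higher. The share called was 33.3%, against 7.79% of all tested genes, and the median log2 value was -0.62. Cd34, the progenitor sialomucin related to Podxl2, stood at 98.6 to 169 CPM in C57BL/6J and 202 to 489 CPM in Rag2-/-γc-/- libraries (log2 -1.38 ± 0.24 SE, adjusted p = 0.00592). The fucosyltransferase Fut4 (log2 -0.72, adjusted p = 0.0205) and the sialyltransferase St3gal6 (-0.62, 0.0272), enzymes of selectin ligands, were lower, as was B4galt1, with 111 to 169 CPM in C57BL/6J libraries, 148 and 176 CPM in Rag2-/-γc-/- libraries 10 and 11 and 276 to 311 CPM in libraries 7, 8 and 9. Sele, the endothelial E-selectin, had 0.0507 to 0.296 CPM in C57BL/6J libraries, 0.163 and 0.405 CPM in Rag2-/-γc-/- libraries 10 and 11, and 2.71 to 4.02 CPM in libraries 7, 8 and 9 (log2 -3.79, adjusted p = 0.0197), so its difference rests on those 3 libraries. Sele passed the low-count filter mainly through the Rag2-/-γc-/- libraries, and the 33.3% counts it. Without libraries 7, 8 and 9, 1 gene of this list was called lower. That fit has 2 Rag2-/-γc-/- libraries, and its calls lower over all tested genes fell as well, from 624 to 127.

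Among other immunoglobulin-family and cadherin adhesion genes (24 of 31 tested), 1 was higher and 4 were lower, 20.8% called against 7.79% of all tested genes. This list also holds genes of neither family, such as Ctnnd1 and Lgals3bp. Sirpa, the receptor of CD47, stood at 6.04 to 40.3 CPM in C57BL/6J and 134 to 161 CPM in Rag2-/-γc-/- libraries (log2 -2.61 ± 0.38 SE, adjusted p = 0.00187). The protocadherin Pcdh7 (log2 -0.83, adjusted p = 0.00313), the catenin Ctnnd1 that binds cadherin tails (-0.62, 0.0176) and Lgals3bp were also lower. Lgals3bp had 74.1 to 104 CPM in C57BL/6J libraries, 95.3 and 105 CPM in Rag2-/-γc-/- libraries 10 and 11 and 185 to 201 CPM in libraries 7, 8 and 9. Cdh2, N-cadherin, was higher but scarce, averaging 1.93 CPM in C57BL/6J and 0.101 CPM in Rag2-/-γc-/- libraries (log2 4.10, adjusted p = 0.000739). Cdh2 passed the low-count filter only through the C57BL/6J libraries.

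Inside the cell, of 35 tested activation and adaptor proteins of integrins (41 listed), 3 were lower and none was higher, 8.57% against 7.79% of all tested genes: Ptk2b, an adhesion kinase (log2 -0.75, adjusted p = 0.0352), Dab2, an endocytic adaptor of integrins (-1.32, 0.0369), and Cytip, which binds cytohesins that regulate LFA-1 (-1.73, 0.0469). Cytip had 102 to 130 CPM in Rag2-/-γc-/- libraries 7, 8 and 9 and 24.4 and 33.0 CPM in 10 and 11. Without libraries 7, 8 and 9, in the same fit with fewer calls over all tested genes, none of the 35 was lower and 1 was higher. Of 12 tested tetraspanins outside the members (23 listed), 1 was called, 8.33% and so near the 7.79% of all tested genes. It was Tspan4, which was lower (27.1 CPM in C57BL/6J and 40.5 CPM in Rag2-/-γc-/- libraries, log2 -0.58, adjusted p = 0.0294). Of 8 tested partner proteins of tetraspanins (11 listed) edgeR called none and 3 had an unadjusted p under 0.05, with DESeq2 calling 2; Igsf8 had the smallest p (log2 0.28, adjusted p = 0.119). Of 4 tested further integrin chains (10 listed) edgeR called none, none had an unadjusted p under 0.05 and DESeq2 called 1; Itga10 had the smallest p (log2 0.48, adjusted p = 0.557).

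The genes whose pattern over the 10 libraries was most like that of the called member with the smallest adjusted p in each class were found among 9989 genes averaging at least 5 CPM, by Pearson's r of log2(CPM + 0.1). For Itgae these were Gnb4 (0.99), Mospd2, Hpse and Cdh1 (0.98 each) and Gca (0.97). For Cdh1 they were Itgae (0.98), Pmepa1, Gca and Fam100a (0.97 each) and Mfge8 (0.96). For Tspan8 they were Dock1 (0.99) and Tnfrsf13b, Emp3, Crot and Sirpa (0.98 each). These values describe 10 libraries that fall into 2 hosts, so any gene that divides the hosts cleanly scores high.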

How the data were processed

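NEBNext Ultra libraries of poly(A)-selected RNA were read as single reads of 75 bases, per the labels' protocols. The authors deposited expected counts per Ensembl gene. The submitters' processing notes name cutadapt 1.11, STAR 2.5.2a, RSEM 1.2.30, edgeR and GRCm38; the annotation release is not given in the sources used here. Reads that fit several genes are divided among them in such counts, so close paralogs are uncertain, and the protocols do not state whether strand was used.

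Counts were rounded (15.3 to 17.34% of a library's values were not whole). The test was edgeR 4.0.16 in R 4.3.3: TMM scaling, filterByExpr with a minimum count of 10 and a minimum total of 15, host as the single term, a quasi-likelihood F test and Benjamini-Hochberg adjustment over 13966 genes. A positive log2 fold change means higher in C57BL/6J, and its standard error was computed as the unshrunken coefficient over the square root of F. All 20 pairs of libraries within a host differed beyond sampling noise. The fitting code was tested on simulated data. DESeq2, used as an alternative only, made more false calls there than its nominal rate at this group size.

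All members are named, with every library's value where called or not overlapping. Each further list gives at most 4 called genes, ranked by adjusted p, or its top gene by p where none was called. B4galt1 and Lgals3bp were called too and are named beyond that rule. The members, lists and alternatives (RLE and upper-quartile scaling, DESeq2 1.42.0, limma-voom 3.58.1, other filters, libraries left out) were chosen with earlier results of these data known. Summed CPM of 11 marker lists was compared by an exact permutation test over all assignments of libraries to hosts (smallest p 0.00794), adjusted over the 11. The lists for erythroid cells (30.6 CPM in C57BL/6J and 92.7 CPM in Rag2-/-γc-/- libraries, adjusted p = 0.109) and stroma (51 and 17.6 CPM, 0.122) are not used further.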

Additional observations from a re-analysis of the deposited data

Results flagged for a closer look

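In 78 groups of 5 libraries, 1 for each member and host, 6 held a library whose gap to its nearest neighbour exceeded 0.71 of the group's range; chance gives about 1 in 20. C57BL/6J library 1 was that library in 4 of them. It was low for Itga2b, at 4.25 CPM, where the other C57BL/6J libraries had 7.92 to 9.16 CPM, and for Itgav, at 44.4 CPM, where the others had 80.8 to 90.0 CPM. It was high for Itgb3, at 2.87 CPM, where the others had 0.0435 to 0.666 CPM, and for Cd37, at 43.8 CPM, where the others had 9.96 to 19.3 CPM. Mitochondrial genes took 1.339% of that library and 2.91 to 4% of the other 9. C57BL/6J library 6 was high for Cd82, at 312 CPM, where the others had 227 to 249 CPM. Rag2-/-γc-/- library 8 was high for Itgb1, at 521 CPM, where the others had 469 to 482 CPM.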

How the results depend on the processing

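All 9 called members were called in each of the 10 fits that left out 1 library. They were also called without Rag2-/-γc-/- libraries 10 and 11. Without libraries 7, 8 and 9, 6 of 9 were called, and Itga9, F11r and Podxl2 were not; the cause was not tested, and that fit has 2 Rag2-/-γc-/- libraries. Podxl2 and Itgad were not tested under the filter of 1 CPM in 5 libraries. The number of members higher, 4, was 4 to 5 with 1 library left out. The number lower, 5, was 5 to 13 with 1 library left out (7 without C57BL/6J library 1, 13 without Rag2-/-γc-/- library 10, 8 without library 11), 11 with DESeq2, 16 without libraries 10 and 11 and 2 without libraries 7, 8 and 9. Of all tested genes, 464 were higher, 275 to 1076 with 1 library left out, 971 with DESeq2, 2786 without libraries 10 and 11 and 148 without libraries 7, 8 and 9; 624 were lower, 304 to 1323 with 1 library left out and 1210, 2518 and 127 in those 3 fits. The 1076 and 1323 came without Rag2-/-γc-/- library 10, the fit in which Itgam, Itga1, Itga6, Vcam1, Cd151, Alcam, Esam and Emb passed. Over 682 member values under 18 alternatives, 637 kept their direction and side of the threshold, 32 uncalled ones passed it, 3 no longer passed it and 10 turned sign. The log2 values that turned sign, all of uncalled members, were Itga1 (0.31), Selplg (0.20) and Cd53 (0.07) without libraries 7, 8 and 9; Itga4 (-0.12), Itgal (0.02) and Itgb7 (-0.10) without libraries 10 and 11; Itgal (0.02) without C57BL/6J library 1; Itgb7 (-0.13) without C57BL/6J library 3 and (-0.05) without library 10; and Cd82 (-0.04) without C57BL/6J library 6. With 1 library left out, the log2 values ran from -0.14 to 0.02 for Itgal, from -0.13 to 0.19 for Itgb7 and from -0.04 to 0.08 for Cd82. Over the 7 further lists, 73 counts under these alternatives moved by more than 1.5 times. No paired analysis was made. The labels do not say which libraries, if any, share a primary leukaemia, and the library numbers of the 2 groups share none. Counts of 1 to 7 reads limit Podxl2.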
